A study of Mus musculus with 18 samples.

Results

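Centromere and kinetochore genes encode the machine that joins chromosomes to the spindle. A list of 38 such genes was followed here in mouse embryonic fibroblasts in which a catalytically dead Cas9 (dCas9) was aimed at the major satellite repeat. The list was chosen by function: CENP-A and its loading factors, the satellite-binding protein CENP-B, the constitutive centromere proteins, the outer kinetochore complexes, spindle checkpoint proteins, and the inner-centromere proteins shugoshin and INCENP. It was chosen with earlier results of these data known. All 38 genes were found among the 47937 gene IDs of the deposited count table, and all 38 passed the filter on low counts, which kept 16216 genes.

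A centromere is marked by nucleosomes that hold CENP-A, a variant of histone H3 that the chaperone HJURP deposits. A constitutive network of CENP proteins sits on this chromatin and recruits the MIS12, KNL1 and NDC80 complexes, which bind microtubules with the help of the SKA complex. Checkpoint proteins hold anaphase back until every kinetochore is attached, and shugoshin protects the cohesion of sister centromeres. In mouse the centromere core lies on minor satellite, and the major satellite that dCas9 was aimed at fills the neighbouring pericentromeric heterochromatin. Many of these genes are transcribed mainly in G2 and mitosis.

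Every cell line was a mouse embryonic fibroblast (MEF) line with a doxycycline-inducible dCas9, grown in tetracycline-free serum with hygromycin. The control line expressed a protein that the labels name only dCas9-control. The repressor was dCas9-KM, and the activator was dCas9-VPR, VPR being a fusion of transcription activation domains. Doxycycline was given for 24 h to the control line (10 ng/ml) and the repressor line (100 ng/ml), and for only 6 h to the activator line (10 ng/ml). Line, dose and time therefore cannot be told apart in comparisons between lines. Each line had 3 uninduced and 3 induced libraries of ribosomal-RNA-depleted total RNA, 18 in all in 6 groups. The labels number the libraries but say nothing of separate cultures. The p-values therefore speak to library-to-library spread alone, and that spread may be technical. The labels name no clone, guide sequence or passage for the lines.

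Library totals ran from 14928765 to 25262912 counts. The 3 induced activator libraries stood apart from the other 15: mitochondrially encoded genes made up 0.917% to 0.971% of their counts against 0.58% to 0.674% elsewhere, and 22641 to 23420 genes had a count against 20107 to 21331. Levels are given as CPM, counts brought to a common library size after TMM scaling, which assumes that most genes do not change. Of 14 fibroblast markers, 11 had enough counts to be tested. On activator induction 7 of these rose and 3 fell, against 38.2% and 37.2% of all genes tested. The sum of the 14 was 25655 to 26175 CPM in the induced activator libraries, 20428 to 20773 CPM in the induced repressor libraries and 22520 to 24233 CPM in the other 4 groups. Thy1 and Fap, also on that list, were at or near 0 throughout, and Lum never exceeded 0.614 CPM. The sum of 5 endothelial markers was 19.2 to 24.1 CPM in the induced activator libraries against 0.304 to 1.249 CPM elsewhere. Nearly all of it was Pecam1, which reached 23.3 CPM. Tek reached 1.27 CPM, while Cdh5, Kdr and Emcn never exceeded 0.33 CPM. Of these 5 markers 2 had enough counts to be tested, and both rose on activator induction. The sum of 6 blood and immune markers was 7.67 to 8.69 CPM in the induced activator libraries against 4.05 to 5.85 CPM elsewhere. Of that list Cd68 was at 3.60 to 5.48 CPM over all libraries, while Lyz2 reached 2.27 CPM and Cd79a 1.84 CPM. The sum of 5 neuron markers, nearly all Tubb3, was 20.8 to 21.8 CPM in the induced activator libraries and at least 31.7 CPM elsewhere. Epcam, Cd3e and Myod1 were at 0 in every library. Other markers of the epithelial and muscle lists were not, such as Krt14 (2.34 to 3.61 CPM) and Tnnt2 (3.69 to 7.61 CPM). The part of these shifts in the results below was not tested.

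In bulk RNA, fewer cells in mitosis and less RNA per cell cannot be told apart. To set genes side by side, CPM in the uninduced control line was divided by annotated exon length in kilobases. These values ran from 42.5 for Hjurp, the CENP-A chaperone, through 37.1 for Zwint and 20.7 for Cenpa, to 2.25 for Cenpk. The annotated exon length was 8331 bases for Hjurp, 5860 for Cenpa and 5231 for Cenpk. Transcript lengths were not measured, so the order between genes depends on the annotation as well as on RNA level. Incenp (30.2) and Cenpb (28.7) overlapped between libraries, and at the bottom of the order Cenpp (2.26) overlapped both Cenpo (2.60) and Cenpk. The lowest count of any member in any library was 75, for Cenpp.

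Inducing the activator changed most of the list within 6 h, in both directions, as it did most genes tested. Of the 38 members 10 were not called, and of all 16216 genes 3998 were not. On the main TMM scale, 19 of the 38 genes rose and 9 fell at an adjusted p under 0.05 (edgeR quasi-likelihood test, Benjamini-Hochberg adjustment over all 16216 genes); among all genes tested, 38.2% rose and 37.2% fell. At a change of at least 1.5-fold, 2 members rose and 4 fell, against 14.5% and 21.7% of all genes. The members' median log2 fold change was 0.201 and that of all genes 0.004. For 29 members the uninduced and induced libraries did not overlap, as for 76.3% of all genes. The 9 falls all kept their call when libraries were scaled to total counts or to mitochondrially encoded genes, both of which shift every gene downward here, and 8 kept it with upper-quartile scaling, where Oip5 lost it. Of the 19 rises, 13 kept their call with total counts and 19 with upper-quartile scaling, but with mitochondrial scaling none did and 16 were called lower. The median log2 fold change of all genes was -0.219 with total counts, 0.108 with upper-quartile and -0.739 with mitochondrial scaling, and that of the members was -0.022, 0.305 and -0.542. A change of scale shifts all genes alike, so the members' distance from the median gene is the same under each by construction. The share of all calls that were higher was 50.7% on the main scale, 32.8% with total counts, 58% with upper-quartile and 9.74% with mitochondrial scaling. Rises and falls below are on the main scale, and so relative to a median gene near 0.

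**Figure D1:**
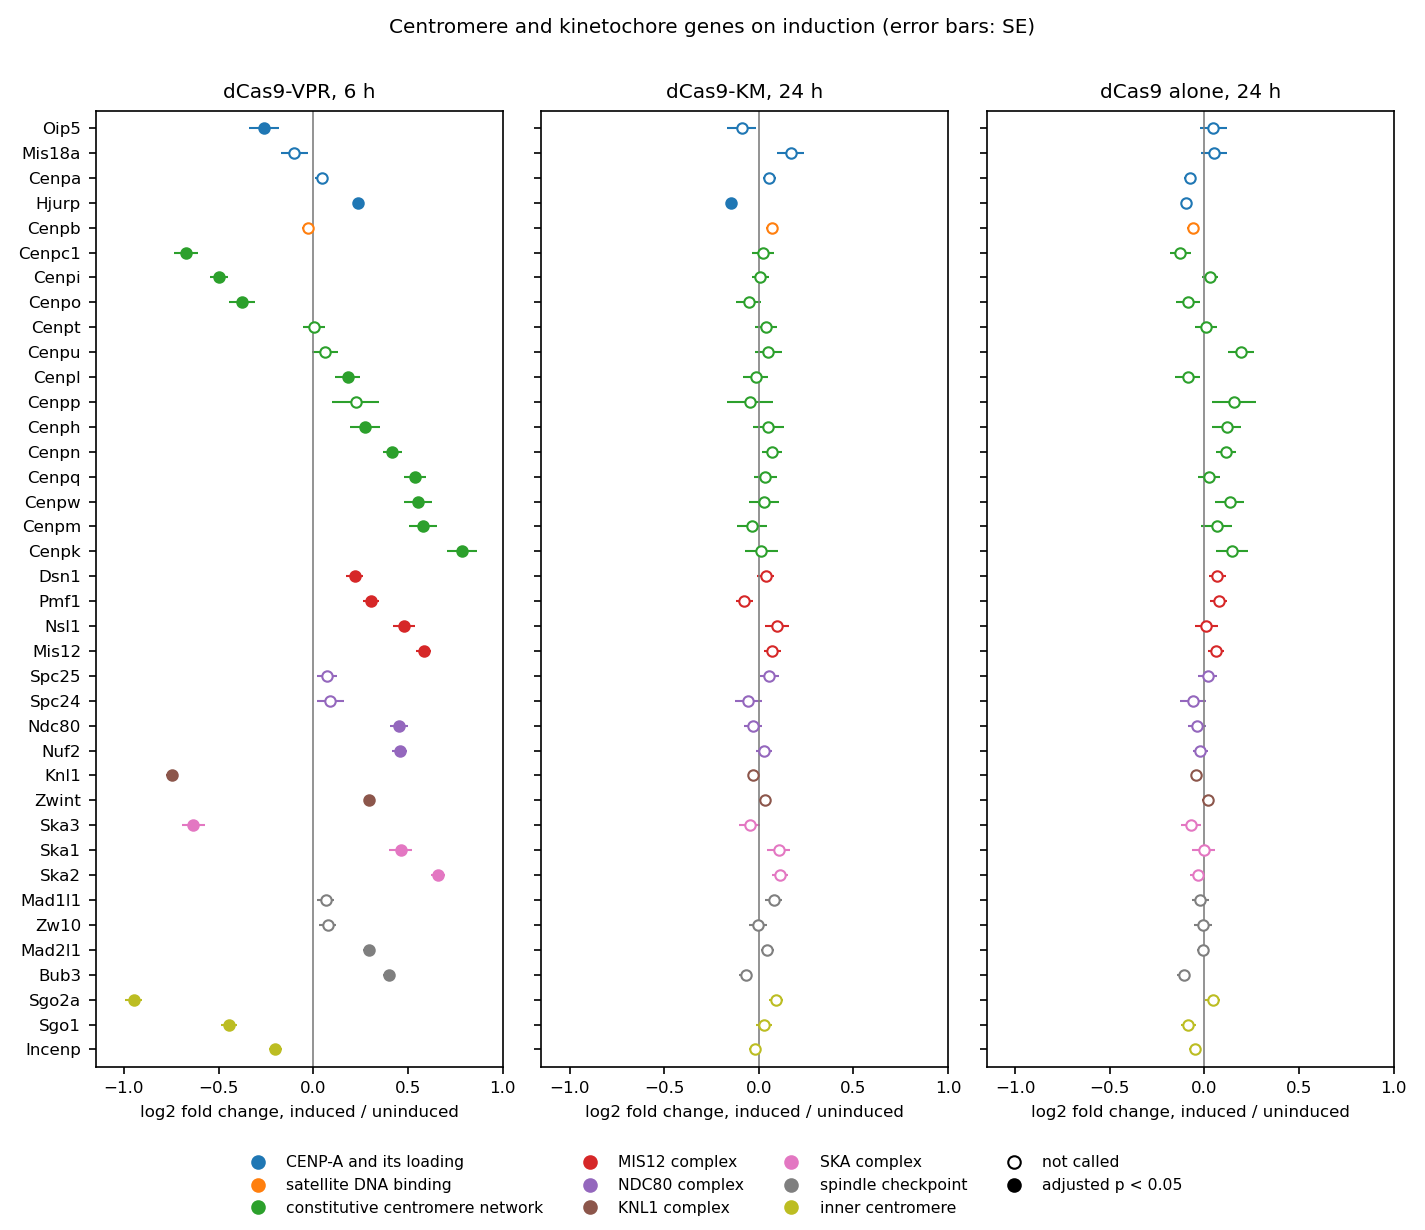
Log2 fold change of each of the 38 genes on induction in the activator, repressor and control lines, grouped by complex, from the edgeR fit with TMM scaling; bars are standard errors and filled points passed the test. In the activator line values ran from -0.95 (Sgo2a) to 0.79 (Cenpk), with all 3 inner-centromere genes below 0. Of all genes tested 37.2% were called lower there. With scaling to mitochondrially encoded genes the rises were lost.

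**Figure D2:**
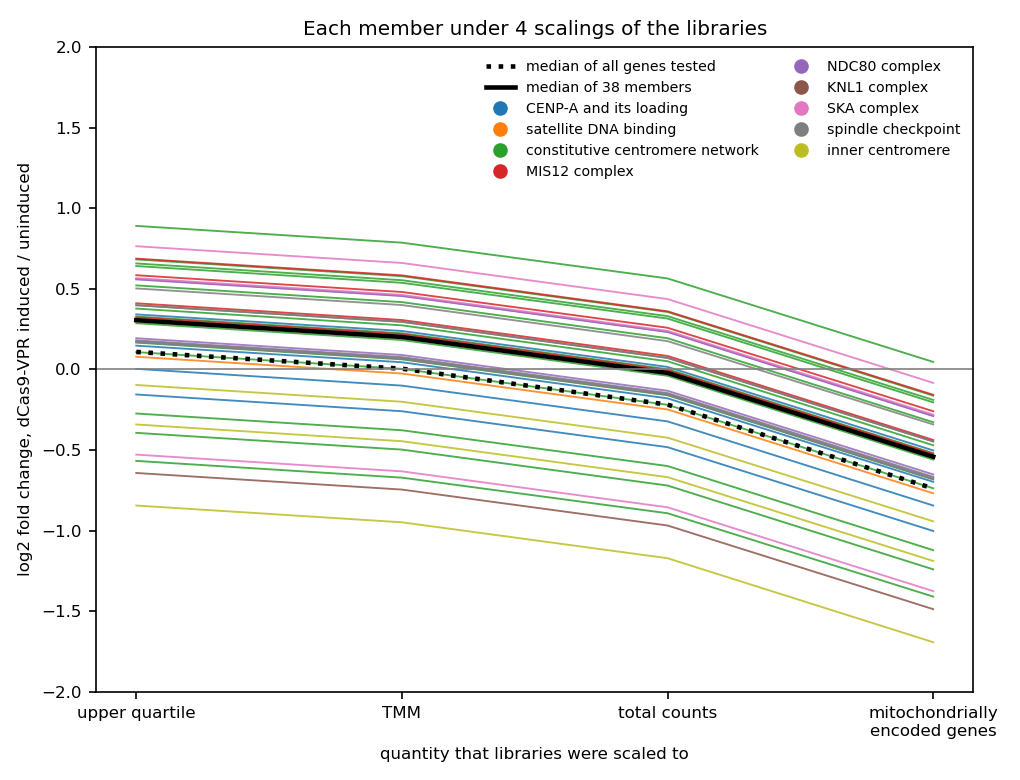
Activator-induction log2 fold changes of the 38 genes under TMM, total-count, upper-quartile and mitochondrial scaling, with a dotted line at the median of all genes tested. A scaling shifts all genes alike by construction, so the order of the genes is shared while the zero line moves, and 19 members were called higher with TMM and 0 with mitochondrial scaling.

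The largest falls were those of Sgo2a, Knl1, Cenpc1 and Ska3, each of at least 1.5-fold. All 3 inner-centromere genes fell, with a median log2 fold change of -0.446, and 37.2% of all genes tested fell. Sgo2a, 1 of the 2 shugoshin genes listed, stood at 75.1, 73.6 and 73.1 CPM in the uninduced activator libraries and at 39.3, 37.6 and 38 CPM in the induced ones. The 12 libraries of the control and repressor lines lay between 70 and 82.3 CPM, so that only the 3 induced activator libraries were low. Its log2 fold change was -0.95 (SE 0.04, adjusted p = 1.94e-34). Sgo2a shares 35.0% of its exon length with Kctd18 on the opposite strand, and Kctd18 fell too, from 14.6 to 10.9 CPM, by a log2 fold change of -0.42 (adjusted p = 3.26e-06); whether the counting used strand was not given. Sgo1, the other shugoshin, went from 62.5, 58.2 and 62.2 CPM to 42.4, 45.7 and 46 CPM, a log2 fold change of -0.45 (SE 0.04, adjusted p = 1.24e-15). Incenp, the scaffold of the Aurora B complex, changed less, from 137, 141 and 136 CPM to 122, 122 and 116 CPM, a log2 fold change of -0.20 (adjusted p = 8.49e-08). The groups did not overlap for any of these 3 genes, as for 76.3% of all genes tested.

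The KNL1 complex split on the TMM scale, Knl1 falling and Zwint rising, where 37.2% of all genes tested fell and 38.2% rose. Knl1 encodes the large scaffold that checkpoint proteins dock on, and Zwint its partner that links it to the RZZ complex. Knl1 was at 180, 180 and 175 CPM before induction and at 104, 109 and 107 CPM after it, a log2 fold change of -0.75 (SE 0.03, adjusted p = 2.0e-36). In the control and repressor lines it lay between 185 and 206 CPM. Zwint rose from 184, 176 and 184 CPM to 221, 226 and 220 CPM (log2 fold change 0.29), and its value was -0.45 with mitochondrial scaling. The ratio of Zwint to Knl1 within a library, which no scaling can alter, was 0.978 to 1.05 in the uninduced activator libraries, 2.06 to 2.13 in the induced ones and 0.789 to 0.918 in the other 4 groups. This ratio and the 3 others given below were chosen after the values were seen.

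The SKA complex, which keeps kinetochores on the ends of shrinking microtubules, also split on the TMM scale: Ska1 and Ska2 rose and Ska3 fell. The shares of all genes tested were 38.2% rising and 37.2% falling. Ska2 went from 58.6, 57.3 and 60.8 CPM to 93.7, 94.4 and 90.6 CPM, a log2 fold change of 0.66 (SE 0.04, adjusted p = 1.11e-27) that was -0.084 with mitochondrial scaling. The other 12 libraries held it between 57.9 and 67.9 CPM. Ska3 went from 32.2, 33.5 and 30.6 CPM to 22.2, 20.8 and 19.5 CPM, a log2 fold change of -0.63 (SE 0.06, adjusted p = 3.72e-16), below the 28.3 to 34.9 CPM of the other lines. Ska1 moved with Ska2, from 21.4, 21.8 and 22.3 CPM to 30.2, 31.7 and 28.4 CPM (log2 fold change 0.46, or -0.28 with mitochondrial scaling). The ratio of Ska2 to Ska3 was 1.71 to 1.98 before induction and 4.22 to 4.65 after it, against 1.77 to 2.21 in the other groups.

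**Figure D3:**
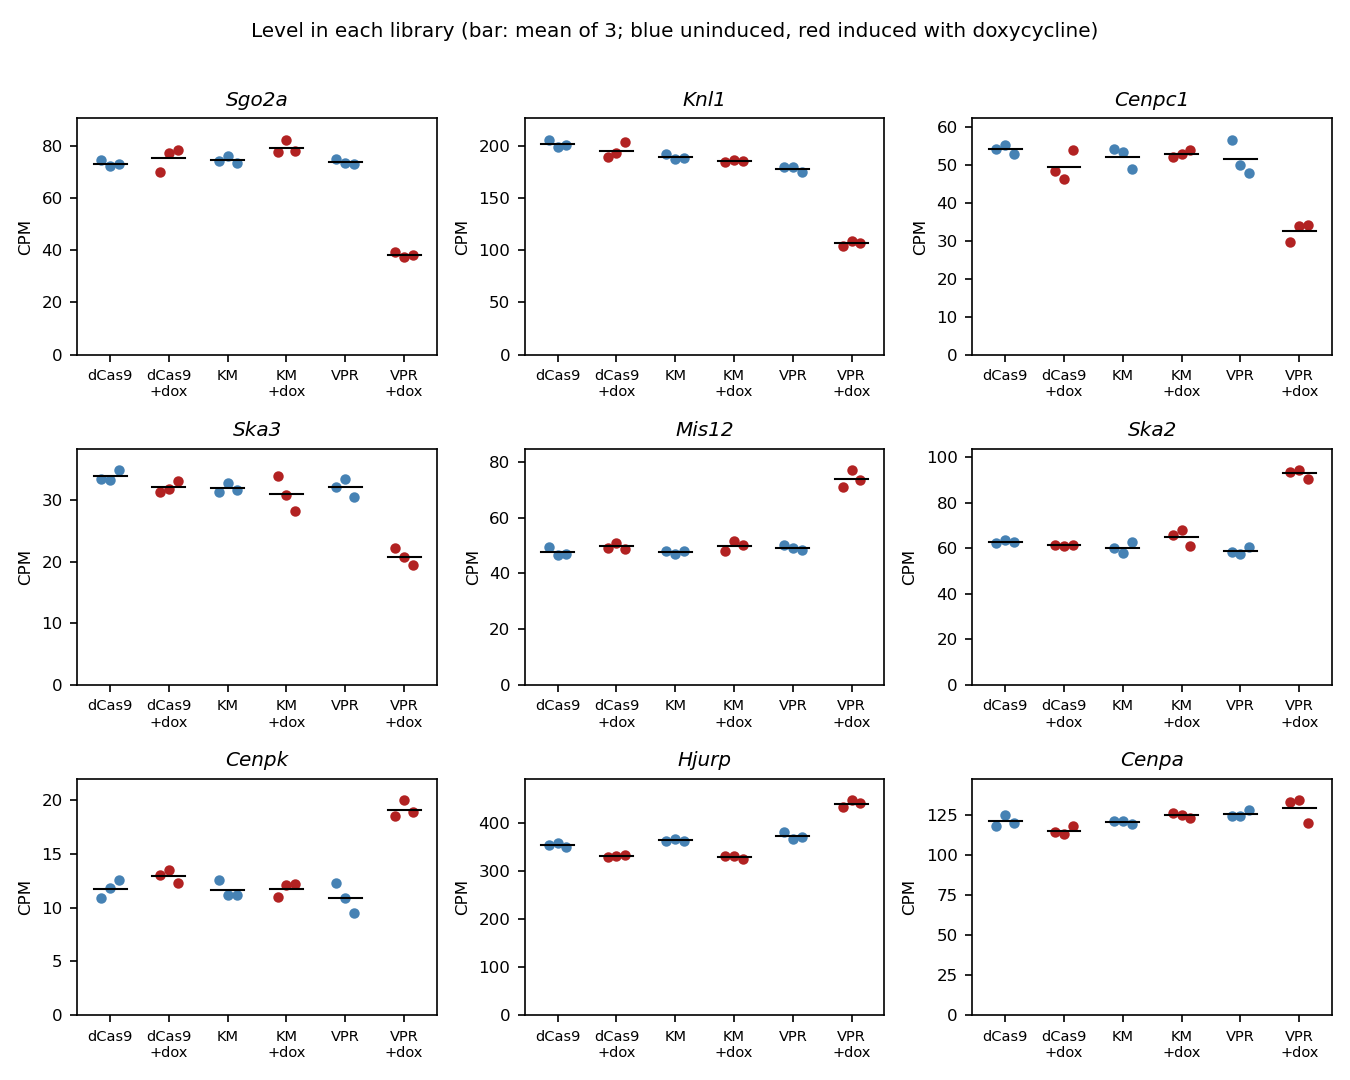
CPM of 9 genes in each of the 18 libraries, by group, with points for libraries and bars for the group mean. Sgo2a, Knl1, Cenpc1 and Ska3 are low and Mis12, Ska2 and Cenpk are high in the 3 induced activator libraries alone, on the TMM scale; with mitochondrial scaling the changes of Mis12 and Ska2 were below 0, and Cenpk no longer passed the test.

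The start regions of Ska2, Ska3, Zwint and Knl1 are shown because each pair belongs to 1 complex and moved apart, those of Oip5, which fell, and Nuf2, which rose, because they hold the opposite pattern of CCAAT boxes, and that of Hjurp for the repressor results. They were chosen after the values were seen. The RefSeq promoter table (GRCm38.p6) matched 34 of the 38 members with 39 promoters; Spc24, Incenp, Nsl1 and Ska1 had no entry. Each sequence runs from 250 bases before the start to 30 bases after it, 5′ to 3′ on the gene's strand. Capitals mark CCAAT boxes, the site bound by NF-Y, and CHR elements (TTTGAA or TTCGAA), a site of cell-cycle genes, on either strand; the E2F letters searched were TTTCCCGC, TTTGGCGC, TTTGCCGC and TTTCGCGC.
Ska2 (chr11:87109011-87109290, plus strand): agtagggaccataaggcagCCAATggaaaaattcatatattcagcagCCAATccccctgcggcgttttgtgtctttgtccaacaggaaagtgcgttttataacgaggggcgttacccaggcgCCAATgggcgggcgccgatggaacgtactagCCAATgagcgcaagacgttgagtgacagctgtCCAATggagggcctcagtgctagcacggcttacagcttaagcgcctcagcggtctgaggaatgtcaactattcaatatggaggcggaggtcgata
Ska3 (chr14:57826134-57826413, minus strand): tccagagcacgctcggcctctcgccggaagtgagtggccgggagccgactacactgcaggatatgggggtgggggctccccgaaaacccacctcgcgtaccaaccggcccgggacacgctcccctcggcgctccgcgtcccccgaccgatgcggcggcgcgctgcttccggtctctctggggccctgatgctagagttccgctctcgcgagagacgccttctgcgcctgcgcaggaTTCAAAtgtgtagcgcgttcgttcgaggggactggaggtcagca
Zwint (chr10:72654596-72654875, plus strand): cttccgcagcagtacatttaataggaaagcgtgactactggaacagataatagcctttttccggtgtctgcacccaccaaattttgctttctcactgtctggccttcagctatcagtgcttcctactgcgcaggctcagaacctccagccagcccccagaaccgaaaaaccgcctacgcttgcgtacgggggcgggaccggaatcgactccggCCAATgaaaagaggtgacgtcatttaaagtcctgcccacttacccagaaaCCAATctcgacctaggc
Knl1 (chr2:119046869-119047148, plus strand): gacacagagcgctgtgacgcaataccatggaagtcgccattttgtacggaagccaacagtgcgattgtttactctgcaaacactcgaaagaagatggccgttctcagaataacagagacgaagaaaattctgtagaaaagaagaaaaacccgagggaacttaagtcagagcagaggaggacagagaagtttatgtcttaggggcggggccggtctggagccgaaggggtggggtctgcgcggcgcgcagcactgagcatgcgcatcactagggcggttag
Oip5 (chr2:119618476-119618755, minus strand): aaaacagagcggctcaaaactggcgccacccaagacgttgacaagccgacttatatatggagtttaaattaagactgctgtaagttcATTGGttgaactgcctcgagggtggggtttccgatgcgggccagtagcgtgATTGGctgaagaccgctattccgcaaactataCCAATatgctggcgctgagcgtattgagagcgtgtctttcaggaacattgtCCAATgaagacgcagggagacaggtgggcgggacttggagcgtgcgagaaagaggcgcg
Nuf2 (chr1:169531435-169531714, minus strand): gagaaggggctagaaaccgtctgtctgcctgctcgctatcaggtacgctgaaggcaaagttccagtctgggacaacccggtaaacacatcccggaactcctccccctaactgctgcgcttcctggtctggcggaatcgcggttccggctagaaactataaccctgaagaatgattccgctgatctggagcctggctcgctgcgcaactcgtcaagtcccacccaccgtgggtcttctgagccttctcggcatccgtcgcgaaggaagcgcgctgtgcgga
Hjurp (chr1:88277550-88277829, minus strand): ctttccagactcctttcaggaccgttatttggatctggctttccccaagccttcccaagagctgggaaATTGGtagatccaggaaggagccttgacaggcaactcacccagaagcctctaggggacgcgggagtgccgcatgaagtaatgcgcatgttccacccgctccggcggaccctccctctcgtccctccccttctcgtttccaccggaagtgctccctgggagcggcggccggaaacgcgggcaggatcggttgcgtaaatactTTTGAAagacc
Ska2 holds 5 CCAAT boxes and Zwint 2, while Ska3 holds a CHR element on the reverse strand and no CCAAT box. Knl1 holds none of these letters in the stretch shown, and its only match is a CHR element 32 bases after the start. Oip5, which fell, holds 4 CCAAT boxes, and Nuf2, which rose, holds none, as do Mad2l1 and Dsn1, which rose too. Cenpi, which fell, and Cenpk, which rose, both hold a CCAAT box. Hjurp holds a CCAAT box on the reverse strand and a CHR element. Over the full 300 bases, a CCAAT box was present in 80% of the 20 promoters of members that rose, in 66.7% of the 9 of members that fell and in 30% of the 10 of members not called, against 37.4% of all 32851 promoters. A CHR element was in 43.6% of the 39 member promoters against 19.2% of all, and in 45% for members that rose, 44.4% for those that fell and 40% for those not called. E2F letters were in 12.8% of member promoters and 2.26% of all. A match is a stretch of letters and no evidence of binding, and no difference between these shares was tested.

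The 4 genes of the MIS12 complex, the bridge between centromere chromatin and the outer kinetochore, all rose on the TMM scale, as did 38.2% of all genes tested. Mis12, Dsn1, Nsl1 and Pmf1 had a median of 0.393. All 4 values were below 0 with mitochondrial scaling, and Dsn1 and Pmf1 lost their call with total counts. Mis12 rose from 50.2, 49.1 and 48.3 CPM to 71.2, 77.1 and 73.5 CPM, a log2 fold change of 0.58 (SE 0.04, adjusted p = 6.47e-23). No library of any other group exceeded 51.6 CPM. Nsl1 rose from 25.1, 24 and 23.3 CPM to 32.3, 36.6 and 32.8 CPM, and Pmf1 from 44.4, 47.4 and 47 CPM to 55.3, 59.7 and 56.6 CPM. Dsn1 changed least, by a log2 fold change of 0.22.

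In the NDC80 complex, the microtubule-binding rod, the 2 genes of the microtubule end rose and the 2 of the centromere end did not pass the test. The share of all genes tested that rose was 38.2%. Ndc80 went from 35.7, 38.2 and 39.5 CPM to 49.3, 54.1 and 51.6 CPM, and Nuf2 from 55.1, 55.1 and 57 CPM to 79.3, 76.5 and 73.4 CPM (log2 fold changes 0.45 and 0.46, both below 0 with mitochondrial scaling). Spc24 (log2 fold change 0.09) and Spc25 (0.07) were not called, and their libraries overlapped. Whether the pairs differ from each other was not tested.

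Of the 13 genes of the constitutive centromere network, which stays on centromeres through the cell cycle, 7 rose, 3 fell and 3 were not called. Of all genes tested 38.2% rose and 37.2% fell. The median of the 13 was 0.224. Cenpc1 encodes CENP-C, the protein that binds CENP-A nucleosomes and holds the MIS12 complex. It fell from 56.7, 50.1 and 47.9 CPM to 29.8, 34 and 34.1 CPM, a log2 fold change of -0.67 (SE 0.06, adjusted p = 1.07e-11), below the 46.3 to 55.3 CPM of the other lines. Cenpi fell from 51, 53.6 and 51.1 CPM to 35.5, 37.6 and 37.3 CPM, a log2 fold change of -0.50 (SE 0.05, adjusted p = 2.7e-16). Cenpo fell from 19.1, 18.8 and 18.2 CPM to 13.9, 14.2 and 15.1 CPM (log2 fold change -0.38, SE 0.07, adjusted p = 1.38e-06); 19.0% of its exon length lies opposite Adcy3, which fell by 0.22 on the log2 scale. In the other direction, Cenpk, a partner of Cenpi in the same CENP-H/I/K/M group, rose from 12.3, 10.9 and 9.54 CPM to 18.5, 20 and 18.9 CPM, a log2 fold change of 0.79 (SE 0.08, adjusted p = 4.65e-15) that was 0.046 and not called with mitochondrial scaling. Cenpm, of that group too, rose from 16.5, 15.6 and 12.9 CPM to 23.2, 22.2 and 22.7 CPM, a log2 fold change of 0.58 (SE 0.07, adjusted p = 3.36e-11). Cenph rose by 0.27, a call that was lost without the first induced library. So within this group of 4, Cenpi fell and the other 3 rose on the TMM scale, while with mitochondrial scaling Cenph (-0.47) and Cenpm (-0.16) were below 0. Cenpq rose from 23, 21.9 and 22.3 CPM to 31.4, 33.4 and 33 CPM, a log2 fold change of 0.54 (SE 0.06, adjusted p = 3.31e-14), and Cenpw from 16.8, 17.8 and 18.7 CPM to 26.5, 28.8 and 23.1 CPM, a log2 fold change of 0.55 (SE 0.08, adjusted p = 4.93e-09). Cenpn (0.42) and Cenpl (0.18) also rose, and all 4 were below 0 with mitochondrial scaling; Cenpl lost its call without the first uninduced or the second induced library. Cenpt (0.00), Cenpu (0.06) and Cenpp (0.22) were not called; 26.7% of the exon length of Cenpu lies opposite Primpol, which rose from 8.45 to 18.2 CPM. The ratio of Mis12 to Cenpc1 was 0.885 to 1.01 before induction and 2.15 to 2.39 after it.

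CENP-A itself did not pass the test. Cenpa stood at 124, 124 and 128 CPM before induction and at 133, 134 and 120 CPM after it (log2 fold change 0.04, 95% interval -0.02 to 0.11, adjusted p = 0.229), and the groups overlapped through the third induced library. Without that library it was called higher (0.093), as it was with upper-quartile scaling (0.15) and with DESeq2 (0.087). With total counts (-0.18) and mitochondrial scaling (-0.70) its direction turned. Hjurp rose from 381, 368 and 372 CPM to 433, 448 and 442 CPM, a log2 fold change of 0.24 (SE 0.03, adjusted p = 1.22e-13), but with total counts it was not called (0.015) and with mitochondrial scaling it was lower (-0.50). Oip5, the MIS18-beta subunit that licenses loading, fell from 15.3, 14.5 and 15.4 CPM to 11.9, 13.6 and 12.4 CPM, a log2 fold change of -0.26 (SE 0.08, adjusted p = 0.00229). Its partner Mis18a was at 17.6, 18.5 and 18.5 CPM and at 16.1, 17.7 and 17.1 CPM, and was not called (-0.10, adjusted p = 0.191). Cenpb, whose protein binds a motif in minor satellite, was at 132, 137 and 132 CPM before induction and at 133, 132 and 130 CPM after it (log2 fold change -0.03, 95% interval -0.09 to 0.04). Its direction turned with upper-quartile scaling (0.078), and it was called lower with total counts (-0.25) and mitochondrial scaling (-0.77).

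Of the 4 spindle checkpoint genes, Bub3 and Mad2l1 rose, against 38.2% of all genes tested, and both were lower with mitochondrial scaling. Bub3, which carries BUB1 and BUBR1 to KNL1, went from 124, 125 and 117 CPM to 167, 165 and 151 CPM (log2 fold change 0.40). Mad2l1, the MAD2 of the anaphase inhibitor, went from 106, 111 and 107 CPM to 134, 133 and 130 CPM (log2 fold change 0.29). Zw10 (0.08) and Mad1l1 (0.06) were not called.

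The sum of all 38 genes was 2348 to 2369 CPM in the uninduced and 2481 to 2584 CPM in the induced activator libraries, against 2284 to 2356 CPM in the control and repressor lines. On the TMM scale the sum was higher despite falls of 1.5-fold or more in Sgo2a, Knl1, Cenpc1 and Ska3. Within it, Hjurp went from a mean of 374 to 441 CPM, Zwint from 181 to 222 CPM and Bub3 from 122 to 161 CPM. The sum was not taken under other scalings. There the members' median log2 fold change was 0.305 with upper-quartile, -0.022 with total counts and -0.542 with mitochondrial scaling.

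Of 28 further genes of the same structures, in a separate list, 14 rose and 10 fell on the TMM scale, with a median log2 fold change of 0.129. Among all genes tested 38.2% rose and 37.2% fell, the shares to set beside the counts of every list in this paragraph. Haspin, the kinase that marks histone H3 for the inner centromere, fell from 24.6 to 13 CPM, a log2 fold change of -0.91 (SE 0.07, adjusted p = 2.83e-20). Rcc1 fell by a log2 fold change of -0.40 (SE 0.04, adjusted p = 9.23e-16) and Cenpf of -0.36 (SE 0.03, adjusted p = 7.14e-16). Kntc1 and Zwilch, subunits of the RZZ complex with Zw10, rose by 0.50 each on the log2 scale (SE 0.04 for both, adjusted p = 7.44e-23 and 3.84e-19). Cenpe, a kinetochore motor, rose by 0.50 (SE 0.03, adjusted p = 2.23e-23) and Spdl1, the dynein adaptor of the kinetochore, by 0.52 (SE 0.05, adjusted p = 8.45e-15). Of 27 other G2 and mitosis genes 19 rose and 7 fell (median 0.203), of 30 G1/S and replication genes 24 rose and 4 fell (median 0.365), and of 12 cohesin genes 7 rose and 5 fell (median 0.102). The median of the 38 members, 0.201, lay between those of the cohesin and the G1/S lists. All 15 mitochondrially encoded genes rose, with a median of 0.745, which is the shift that mitochondrial scaling removes. That shift exceeds the medians of the other lists named here and the rises of Kntc1, Zwilch, Cenpe and Spdl1, so under it these values lie below 0.

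Many of the 38 genes start next to another gene. In GENCODE M21, 13 of the 38 (34.2%) have a gene starting within 1000 bases on the opposite strand, against 10.8% of all protein-coding genes in the table, a difference that was not tested. In the activator induction both genes of 10 pairs were called, 6 in the same and 4 in opposite directions on the TMM scale. Among all genes tested 38.2% rose and 37.2% fell, and pairs of other genes were not counted. Mitochondrial scaling lowers genes by more than any rise in these pairs except those of Cenpk and Trpm8. Ska2 and Prr11, whose starts are 526 bases apart, rose together by 0.66 and 0.68, and Prr11 went from 99.5 to 160 CPM. Nsl1 and Tatdn3 (80 bases), Cenpq and Mut (362) and Cenpn and Cmc2 (275) also rose together. Opposite pairs were Ska3 (-0.63) and Mrpl57 (0.27) at 49 bases, Oip5 (-0.26) and Nusap1 (0.46) at 171 bases, Cenpk (0.79) and Ppwd1 (-0.36) at 232 bases, and Mis12 (0.58) and Derl2 (-0.23) at 230 bases. Some pairs share exon bases on opposite strands, so their counts are uncertain. Shared were 233 bases for Cenpk and Ppwd1, 231 for Mis12 and Derl2, 172 for Oip5 and Nusap1, and 95 for Cenpq and Mut. Cenpp was not called while Nol8, 293 bases away, fell from 44.5 to 21.9 CPM. Trpm8, a cold-sensing ion channel gene that starts 28 bases from Hjurp, had 3 counts over the 3 uninduced activator libraries and 124 over the induced ones, a ratio of 52.3 in CPM (exact 95% interval 17.5 to 257, counting error only), and reached 2.97, 2.07 and 1.99 CPM.

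**Figure D4:**
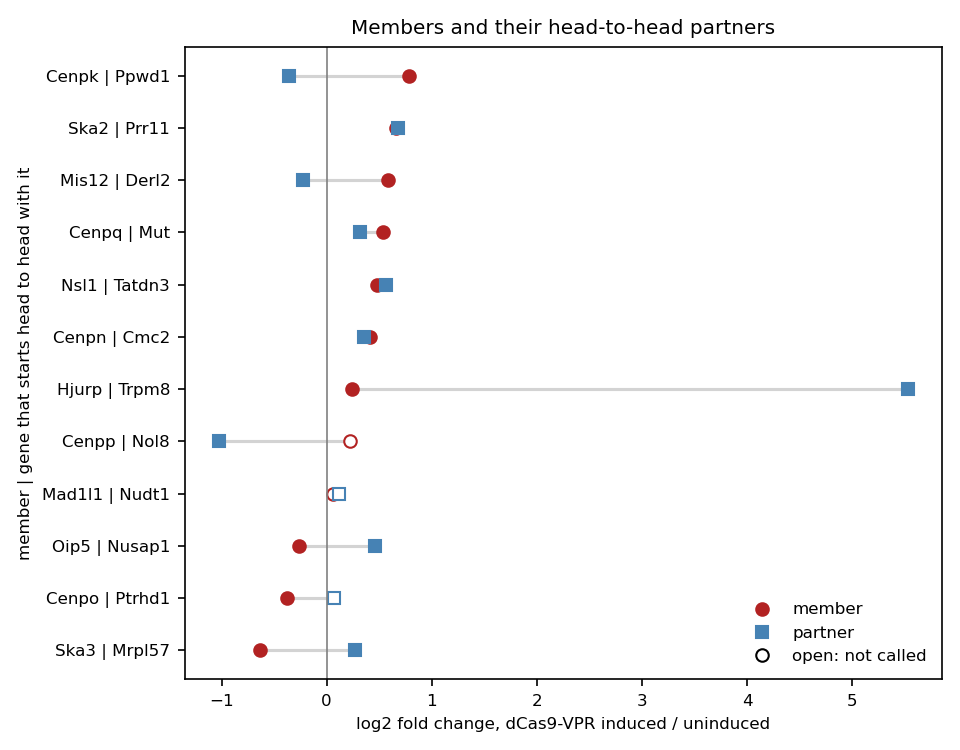
Log2 fold change of each member on activator induction (red circles) and of the gene starting within 1000 bases on the opposite strand (blue squares), 1 pair per line for 12 of the 13 pairs, with TMM scaling and open marks for values not called. Ska2 and Prr11 lie together at the right of 0 and Ska3, Oip5, Cenpk and Mis12 lie across 0 from their partners; with mitochondrial scaling Cenpk stayed above 0 while Ska2 and Mis12 fell below it. The point of Trpm8 rests on 3 counts before induction and depends on the fit's prior count.

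The genes lie on 19 chromosomes, at most 5 on any. Mouse chromosomes carry their centromere near base 1 of the assembly, and 2 members start within the first 10 Mb, Cenpo on chromosome 12 at 4.23 Mb and Incenp on chromosome 19 at 9.9 Mb. Both fell, whereas of 943 genes tested in the first 10 Mb of all chromosomes 412 rose and 308 fell (median 0.099). The other 36 start beyond 20 Mb. As a description without a test, the 9 members that fell had a median locus length of 29.9 kb and exon length of 5634 bases, the 19 that rose 15.4 kb and 4211 bases, and the 10 not called 10.5 kb and 3648 bases; the ranges overlapped.

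After 24 h of repressor induction Hjurp was lower, and no other gene of the list passed the threshold in the edgeR fit of all 18 libraries with TMM scaling. With dCas9 alone Hjurp changed by -0.10, not called in this fit. The difference between these 2 changes of Hjurp, -0.05, was not called either. Of the 38 genes 0 rose and 1 fell, against 5.21% and 4.59% of all genes, with a median of 0.027 (all genes -0.001). DESeq2 and limma-voom also called 0 higher, and 5 members had an unadjusted p under 0.05. Total counts called 2 higher, Cenpb (0.10, adjusted p = 0.044) and Ska2 (0.14, adjusted p = 0.0236). Ska2 was also called in the fit of these groups alone (0.11, adjusted p = 0.0459) and without the third uninduced (0.14) or the third induced library (0.15). The libraries of 9 members did not overlap, against 26.7% of all genes. The gene that fell was Hjurp, from 364, 367 and 364 CPM to 332, 331 and 325 CPM, a log2 fold change of -0.15 (SE 0.03, adjusted p = 1.5e-05), and it kept this call under every alternative run. Cenpa was at 121, 121 and 119 CPM before and at 126, 125 and 123 CPM after induction, which did not pass the test (log2 fold change 0.05, adjusted p = 0.365). The ratio of Hjurp to Cenpa was 3.02 to 3.05 before and 2.63 to 2.65 after repressor induction, without overlap. Mis18a (0.17, adjusted p = 0.131), Cenpb (0.07, adjusted p = 0.17), Sgo2a (0.09, adjusted p = 0.138) and Oip5 (-0.09, adjusted p = 0.556) were not called. Ska2 was nearest to the threshold among the rest (0.11, adjusted p = 0.0646). Marker sums moved in the same libraries: 9 of the 11 fibroblast markers tested fell, the fibroblast sum going from 23730 to 24233 CPM down to 20428 to 20773 CPM. The muscle sum went from 6.71 to 6.76 CPM up to 10.7 to 11.955 CPM. Of 4 muscle markers tested 2 were called higher, and Myod1 and Myog were at 0. The neuron sum, nearly all Tubb3, went from 32.7 to 35.7 CPM up to 52.4 to 53.4 CPM with Rbfox3 and Snap25 at 0. Their part in the change of Hjurp was not tested.

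Inducing dCas9 alone for 24 h called 0 of the 38 genes in either direction with edgeR, against 0.253% of all genes higher and 0.21% lower, and 7 members had an unadjusted p under 0.05. DESeq2 and limma-voom each called 1, Hjurp, as lower. The libraries of 9 members did not overlap, against 15.5% of all genes. Hjurp went from 354, 359 and 350 CPM to 330, 331 and 334 CPM without overlap (log2 fold change -0.10, adjusted p = 0.0684 with edgeR). Cenpa (-0.08, adjusted p = 0.378), Cenpb (-0.06, adjusted p = 0.479), Oip5 (0.05, adjusted p = 0.888) and Mis18a (0.05, adjusted p = 0.872) were not called. The ratio of Hjurp to Cenpa was 2.87 to 3.01 before and 2.83 to 2.93 after. The change of Hjurp in the repressor line minus that in the control line did not pass the test (log2 difference -0.05, 95% interval -0.13 to 0.02, adjusted p = 0.615). Of the 28 further genes, 3 fell on control induction, Bub1b by -0.20 (adjusted p = 2.3e-05), Cdc20 by -0.19 (adjusted p = 8.75e-05) and Plk1 by -0.16 (adjusted p = 0.0052). On repressor induction Kif18a fell by -0.20 (adjusted p = 0.000146), Rcc1 by -0.15 (adjusted p = 0.00716) and Bub1b by -0.13 (adjusted p = 0.00177). Of the 27 G2 and mitosis genes 5 fell with dCas9 alone and 3 rose with the repressor, against 0.21% and 5.21% of all genes.

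Changes in the activator line were then set against those with dCas9 alone as an interaction term, with 6 h of induction in the first and 24 h in the second. The difference was higher for 19 and lower for 9 of the 38 genes, against 30.8% and 33% of all genes, with a median of 0.151 (all genes -0.009). Sgo2a (-0.99), Knl1 (-0.70), Ska3 (-0.56), Cenpc1 (-0.54) and Cenpi (-0.53) were lowest, and Ska2 (0.70) and Cenpk (0.64) highest, the latter pair turning below 0 with mitochondrial scaling. Cenpa passed here (0.12, adjusted p = 0.0229) with log2 changes of 0.04 in the activator and -0.08 in the control line, neither of which passed alone; the call was lost on leaving out any of 6 libraries and turned with total counts and mitochondrial scaling. The repressor change minus the control change was called for 0 members (unadjusted p under 0.05 for 4; 0 with DESeq2 and limma-voom), against 1.19% of genes higher and 1.54% lower. Without the first induced control library Cenpb was called (0.16, adjusted p = 0.044).

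Before any induction, 7 of the 38 genes differed between the activator and control lines. Of the 38 genes 5 were higher and 2 lower, against 8.92% and 10.5% of all genes, and 12 did not overlap, against 33.4%. Knl1 was lower, at 175 to 180 CPM against 199 to 206 CPM (log2 difference -0.18, adjusted p = 1.53e-06), and Zwint higher, at 176 to 184 CPM against 162 to 169 CPM (0.14, adjusted p = 0.000184). With mitochondrial scaling the Zwint difference was not called. Cenpu (0.20, adjusted p = 0.0293), Zw10 (0.17, adjusted p = 0.00492), Mad1l1 (0.14, adjusted p = 0.0153) and Hjurp (0.08, adjusted p = 0.0245) were higher and Mad2l1 (-0.10, adjusted p = 0.0276) lower. Leaving out single libraries dropped Cenpu, Mad1l1, Hjurp and Mad2l1 below the threshold, down to 2 higher genes without the first uninduced control library, and Hjurp turned to -0.0018 with mitochondrial scaling. Between the uninduced repressor and control lines 0 members were called (unadjusted p under 0.05 for 3; 0 with DESeq2 and limma-voom), against 0.863% higher and 0.697% lower, and 8 did not overlap, against 18.4%. The fit of these groups alone called Cenpm higher (0.25, adjusted p = 0.0391) and Knl1 lower (-0.09, adjusted p = 0.0332).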

How the data were processed

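The authors deposited whole-number counts of reads per gene for 18 libraries, made with genome build mm10 per the submitters' processing notes. Aligner, counting tool, annotation and strand setting were not given in the sources used here, so counts of overlapping genes on opposite strands are uncertain. Per the labels, TRI Reagent RNA was treated with DNase and made into stranded, rRNA-depleted libraries read in pairs. Of 47937 gene IDs, 18044 had no count, and 47310 matched GENCODE M21 (GRCm38), which gave symbols, positions and exon lengths; the 627 others held 0.0423% of counts. The members and gene lists were chosen with earlier results of these data known.

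Genes passing filterByExpr (16216) were fitted with edgeR 4.0.16 (R 4.3.3; TMM, robust quasi-likelihood, 1 coefficient per group, all 18 libraries, 12 residual degrees of freedom, common biological coefficient of variation 0.0246), and a gene was called at a Benjamini-Hochberg adjusted p under 0.05. Alternatives were DESeq2 1.42.0, limma-voom (limma 3.58.1), other scalings and filters, own-group fits, a replicate block and leaving out each library. Genes named by rule were, per comparison, up to 6 called members per direction by absolute log2 fold change, Cenpa, Hjurp, Oip5, Mis18a and Cenpb in each induction, and up to 4 further kinetochore genes per direction. The fit was first tested on simulated counts with 1 spread (0.0246) for every gene. It recovered 52% of 1.25-fold, 64% of 1.5-fold, 86% of 2-fold and 94% of 4-fold changes, with 50 genes at each. Among unchanged genes there were 7 false calls. Replicates differed by more than counting noise (chi-square per degree of freedom 1.39 to 7.02), and every library was counted as a sample of its own. A few genes that this rule or that for neighbouring starts would name are not reported here.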

Additional observations from a re-analysis of the deposited data

Results flagged for a closer look

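These genes were picked out because their change on induction differed between the activator line and the line with dCas9 alone, by the interaction term of the edgeR fit with Benjamini-Hochberg adjustment over 16216 genes, with 3 libraries in each of the 4 groups. Line and induction time cannot be told apart in it. The log2 difference was below 0 for Sgo2a (-0.99, adjusted p = 3.27e-27), Knl1 (-0.70, adjusted p = 7.97e-26), Ska3 (-0.56, adjusted p = 3.34e-09), Cenpc1 (-0.54, adjusted p = 9.08e-07), Cenpi (-0.53, adjusted p = 1.16e-11), Sgo1 (-0.36, adjusted p = 1.66e-07) and Oip5 (-0.31, adjusted p = 0.00947). It was above 0 for Ska2 (0.70, adjusted p = 1.21e-19), Cenpk (0.64, adjusted p = 1.05e-06), Mis12 (0.52, adjusted p = 1.14e-12), Cenpm (0.51, adjusted p = 2.57e-05), Cenpq (0.51, adjusted p = 6e-08), Bub3 (0.51, adjusted p = 2.85e-16), Hjurp (0.33, adjusted p = 4.17e-13) and Cenpa (0.12, adjusted p = 0.0229), all 8 of which turned below 0 with mitochondrial scaling. The call of Oip5 was lost with upper-quartile scaling (-0.21, adjusted p = 0.0863) and with DESeq2 (-0.26, adjusted p = 0.0634).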

How the results depend on the processing

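In the activator comparisons the scaling of the libraries moved the counts most. With mitochondrial scaling, activator induction called 0 members higher and 35 lower, its difference from the control line 0 and 34, and the uninduced activator line against the control line 0 and 5. Upper-quartile scaling went the other way, to 27 higher and 8 lower on activator induction and 25 and 6 for its difference from control, and DESeq2 gave 21 and 9, and 19 and 6. With total counts, activator induction called 17 lower, the difference from control 11 higher and 17 lower, repressor induction 2 higher, and the uninduced activator line 1 lower. Of the 19 rises on activator induction, 18 lay below 0 with mitochondrial scaling and 2 with total counts. Among the genes named by rule, those that turned with mitochondrial scaling were Ska2 (-0.084), Mis12 (-0.16), Cenpm (-0.16), Cenpw (-0.19), Cenpq (-0.21), Cenpa (-0.70) and Hjurp (-0.50), and otherwise Cenpa with total counts (-0.18) and Cenpb with upper-quartile scaling (0.078). In the difference from control, all 19 higher genes lay below 0 with mitochondrial scaling, and among the genes named by rule it turned Ska2 (-0.007), Cenpk (-0.056), Mis12 (-0.18), Cenpm (-0.18), Cenpq (-0.19), Bub3 (-0.19), Cenpa (-0.58), Hjurp (-0.37) and Cenpb (-0.67), and total counts turned Cenpa (-0.12) and Cenpb (-0.21). Hjurp in the uninduced activator line turned with mitochondrial scaling (-0.0018).

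DESeq2 called 3 members higher in the uninduced activator line; DESeq2 and limma-voom each called 1 lower on control induction. Without a filter on low counts the uninduced activator line had 1 lower. Fits of the compared groups alone called 1 higher on repressor induction, and 1 higher and 1 lower between the uninduced repressor and control lines. Leaving out each library gave 18 to 20 higher and 9 lower on activator induction, 16 to 19 higher and 9 lower for its difference from control, 0 to 1 higher on repressor induction and for its difference from control, and 2 to 5 higher and 1 to 2 lower for the uninduced activator line. Except where scalings are named above, the cause was not tested.

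The same-numbered libraries gave low correlations of their deviations, from -0.0747 to 0.13, with 1 of 9 over 0.1. In the activator line these were 0.0373, 0.097 and 0.13, while differently numbered libraries gave -0.139 to 0.0556. Differently numbered control libraries reached 0.135. Whether libraries pair was not tested. With the replicate number as a block, activator induction again called 19 higher and 9 lower, all 28 calls shared, and no count of members changed in any comparison. With 3 libraries a group, precision is limited to the standard errors given, and a gene not called may still have changed.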
